A study of Mus musculus with 57 samples.

Results

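Immediate early genes are the genes that a cell transcribes within minutes of a stimulus, without waiting for new protein to be made. The 36 genes described here were taken by symbol from a list of this kind, chosen with earlier results of these data known. Shares of members called are therefore not those of a list drawn independently of these data. They comprise the Fos, Jun, Egr, Ier, Nr4a, Klf and Gadd45 families, small Maf proteins, RNA decay and growth arrest factors, and a few kinases, phosphatases and GTPases. All 36 were present among the 50565 genes of the first count table and the 53278 genes of the second. All 36 passed the low-count filter in the first experiment and 35 in the second, where Arc did not pass.

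The libraries hold polyadenylated RNA of brain cells selected for CD11b, a myeloid surface marker, and labelled as microglia. They come from wild-type (WT) mice and from littermates lacking P2RY12 (KO), a receptor for extracellular nucleotides found on resting microglia. The sex experiment has 18 libraries in the count table, with 4 WT and 5 KO from males and 4 WT and 5 KO from females. The LPS experiment has 33 libraries of WT and KO mice labelled LPS or ns. LPS (lipopolysaccharide, a bacterial cell-wall component) was injected into the peritoneum at 1 mg/kg. The mice were adult. The labels define neither ns nor the time between injection and collection, and they give no sex for the LPS experiment and no treatment of the single libraries of the sex experiment. Nothing says that each library came from its own animal, so p-values measure only the spread between these libraries, which may be technical. How the knockout allele was made is not given in the sources used here. Depth, as total counts in units of 1000000, ranged over the libraries from 58.5 to 318.5 for the sexes and from 15.9 to 168.4 for LPS.

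Many immediate early genes encode transcription factors. Mitogen-activated protein kinases switch them on through serum response factor at CArG boxes, and cyclic AMP signalling does so through CREB. In microglia, Toll-like receptor signalling through NF-kB adds inducible genes such as Ier3 and Maff. The same group of genes is also known for rising while brain tissue is dissociated into single cells, before any RNA is taken. Several members, among them Dusp1, Zfp36, Klf2 and Btg2, act as brakes on the signals that induced them.

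The promoter sequences shown here are those of some of the members that were later found to move with LPS and that hold a match to a known response element. Among those not shown are Klf4, called higher with LPS in both genotypes, with GCGGGGGCG, and Fosb, called lower in WT, with an NF-kB site and GCGGGGGCG. RefSeq promoters (build GRCm38.p6, 250 bases before the annotated start) were matched for 28 of the 36 genes, and Fosl1, Egr1, Egr3, Ier2, Klf10, Myc, Sik1 and Arc had no entry. Capitals mark the match. Ier3 (chr17:35821463-35821712, plus strand) and the downstream of the Maff start sites shown (chr15:79348152-79348401, plus strand) hold an NF-kB site. The upstream of the Maff start sites shown (chr15:79347270-79347519, plus strand), Dusp1 (chr17:26508473-26508722, minus strand) and Btg2 (chr1:134079156-134079405, minus strand) hold TGACGTCA, the full cyclic AMP response element. Another Maff start site lies further upstream (chr15:79346371-79346620, plus strand), holds none of the motifs searched and is not shown. Egr2 (chr10:67537619-67537868, plus strand) holds a CArG box. The Egr2 start site furthest upstream (chr10:67535249-67535498, plus strand) holds none of the motifs searched and is not shown. Junb, Rhob and Jund were also called with LPS in at least 1 genotype, and their promoters hold none of the motifs searched. Fos holds an NF-kB site and was called in neither genotype.
Ier3: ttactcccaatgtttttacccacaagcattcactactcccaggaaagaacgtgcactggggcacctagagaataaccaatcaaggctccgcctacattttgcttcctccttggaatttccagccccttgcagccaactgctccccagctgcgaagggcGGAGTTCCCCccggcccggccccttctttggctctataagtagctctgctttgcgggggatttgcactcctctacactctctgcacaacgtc
Maff, downstream start: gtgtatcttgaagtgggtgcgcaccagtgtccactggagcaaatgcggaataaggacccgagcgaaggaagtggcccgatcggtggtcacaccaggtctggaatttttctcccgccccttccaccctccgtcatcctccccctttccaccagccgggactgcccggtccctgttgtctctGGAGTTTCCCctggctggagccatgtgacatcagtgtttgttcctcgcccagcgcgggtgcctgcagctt
Maff, upstream start: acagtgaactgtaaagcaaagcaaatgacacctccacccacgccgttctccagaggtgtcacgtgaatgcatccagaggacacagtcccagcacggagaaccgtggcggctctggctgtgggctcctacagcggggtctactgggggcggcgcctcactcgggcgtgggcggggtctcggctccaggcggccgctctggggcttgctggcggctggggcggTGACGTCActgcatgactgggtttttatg
Dusp1: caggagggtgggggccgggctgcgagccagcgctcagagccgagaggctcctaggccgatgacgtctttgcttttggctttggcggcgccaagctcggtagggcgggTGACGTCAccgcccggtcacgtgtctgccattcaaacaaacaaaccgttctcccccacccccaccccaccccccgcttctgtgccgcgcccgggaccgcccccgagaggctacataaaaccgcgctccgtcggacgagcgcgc
Btg2: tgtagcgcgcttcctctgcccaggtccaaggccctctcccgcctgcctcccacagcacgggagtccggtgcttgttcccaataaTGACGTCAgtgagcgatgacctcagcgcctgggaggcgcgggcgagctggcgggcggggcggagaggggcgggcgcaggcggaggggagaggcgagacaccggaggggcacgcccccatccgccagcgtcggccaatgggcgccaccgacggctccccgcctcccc
Egr2: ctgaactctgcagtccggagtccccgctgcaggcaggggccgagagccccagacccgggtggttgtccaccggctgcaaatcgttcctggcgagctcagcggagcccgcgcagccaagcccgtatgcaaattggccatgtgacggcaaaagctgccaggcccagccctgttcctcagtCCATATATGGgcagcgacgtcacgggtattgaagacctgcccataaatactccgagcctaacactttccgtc

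Matches were searched on both strands and are descriptions of the letters, not evidence of binding. TGACGTCA was found in the promoters of 4 matched members (Btg2, Maff, Dusp1 and Plk2), and 1.77% of the 27025 genes with a promoter entry hold it. A CArG box was found for 3 members (Egr2, Zfp36 and Srf) against 1.62% of all genes. An NF-kB site was found for 5 members (Fos, Fosb, Fosl2, Ier3 and Maff) against 4.46% of all genes. GCGGGGGCG, the motif of the Egr proteins, was found for 8 members (Fosb, Fosl2, Nr4a1, Klf2, Klf4, Zfp36, Mafk and Srf) against 2.93% of all genes. TGACTCA, the AP-1 motif bound by Fos and Jun dimers, was found for 1 member, Csrnp1, against 5.16% of all genes. TATAAA was found for 5 members against 14.3% of all genes. A GCGGGGGCG match and an NF-kB site can share bases. A gene with several annotated starts counts once if any of its windows holds the motif.

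Several libraries were handled apart before any result. Levels are CPM (each count scaled to a library total of 1000000) after scaling by TMM (trimmed mean of M-values) within each experiment. The 10 microglial marker genes summed to 23757 to 38906 CPM in the sex experiment and 16652 to 51968 CPM in the LPS experiment. P2ry12 was lower in KO than in WT libraries of the same sex, with 309 to 526.4 CPM in the 10 KO libraries and 3007 to 5928 CPM in the 8 WT libraries. In the LPS experiment it lay at 585 to 1235 CPM in KO ns and 3512 to 5405 CPM in the 6 WT ns libraries that were tested. The 4 WT libraries of library number 2 carried levels that go against their labels. The 2 labelled WT ns had P2ry12 at 482 and 927 CPM, and Saa3, an acute-phase gene, at 1785 and 2491 CPM, against at most 64.3 CPM in the other WT ns libraries. The 2 labelled WT LPS had P2ry12 at 4461 and 12121.5 CPM, against at most 1062 CPM in the other WT LPS libraries, and Saa3 at 1.59 and 3.20 CPM, against at least 1417 CPM in the other WT LPS libraries. These 4 were left out of the tests and are described separately. WT LPS 8 and WT LPS 9 differed by little more than sampling noise and were counted as 1 sample, which leaves 6 WT ns, 6 WT LPS, 8 KO ns and 8 KO LPS samples. In addition, 6 libraries of the second library set stood apart from the other 26 in genes outside the list, and 4 of these 6 are in the tests. Counts of calls and medians for the LPS experiment are given with and without them.

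LPS moved the immediate early genes in both directions. In KO libraries 11 of 35 tested members were higher with LPS and 6 were lower (edgeR quasi-likelihood test, Benjamini-Hochberg adjusted p under 0.05 over 16088 genes). That is 17 of 35, while 28.5% of all genes tested were called in this comparison, 14.4% higher and 14.1% lower. In WT libraries 9 members were higher and 7 were lower, 16 of 35, against 30.7% of all genes, 15.5% higher and 15.2% lower. The members' median log2 fold change was 0.44 in KO and 0.15 in WT, and the medians over all genes were 0.014 and 0.026. The members' medians were 0.23 in KO and 0.28 in WT without the 6 libraries that stand apart, and 0.25 in KO without KO LPS 8 alone. They were 0.17 in KO and 0.12 in WT within library set 1 alone, and 0.69 in KO and 0.062 in WT within set 2 alone. The 10 microglial markers summed to 21218 to 27206 CPM across KO LPS libraries against 33276 to 51968 CPM without LPS, with no overlap, and to 16652 to 25441 CPM across WT LPS libraries against 22319 to 39038 CPM without LPS, with overlap. The 6 monocyte markers overlapped in both genotypes, at 407 to 861 CPM with LPS against 90.0 to 1232 CPM without it for KO, and 498 to 2500 CPM against 181 to 2292 CPM for WT. The part of these markers in the members' values was not tested. Among members, 9 were called higher in both genotypes (Ier2, Ier3, Klf4, Gadd45b, Maff, Myc, Dusp1, Plk3 and Sik1) and 5 were called lower in both (Jund, Egr2, Egr3, Btg2 and Rhob). Called the same way in both were 20.3% of all genes. Without the 6 libraries that stand apart, 17 members were called higher and 9 lower in KO, 26 in all, and 15 higher and 8 lower in WT, 23 in all. The calls of the full fit were kept in that fit, 17 of 17 in KO and 16 of 16 in WT, while the share of all genes called was 54.7% and 54.1%. Some calls lie near the threshold. When each of the 28 samples was left out in turn, the KO call was lost for Jund in 9 fits, Gadd45b in 5, Plk3 in 3 and Dusp1 in 2, and the WT call for Plk3 in 21, Dusp1 in 13, Btg2 in 12 and Jund in 7, with adjusted p at most 0.170. Where these calls were lost, the log2 fold change was -0.62 to -0.54 for Jund in KO and 0.89 to 1.02 for Plk3 in WT, close to the values with all samples, while that of Dusp1 was 0.76 to 1.37 in KO and 1.08 to 1.59 in WT. No other member's call was lost in these fits. The members most often named as the core of the group, Fos, Jun and Egr1, were called in neither genotype in either fit.

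**Figure D1:**
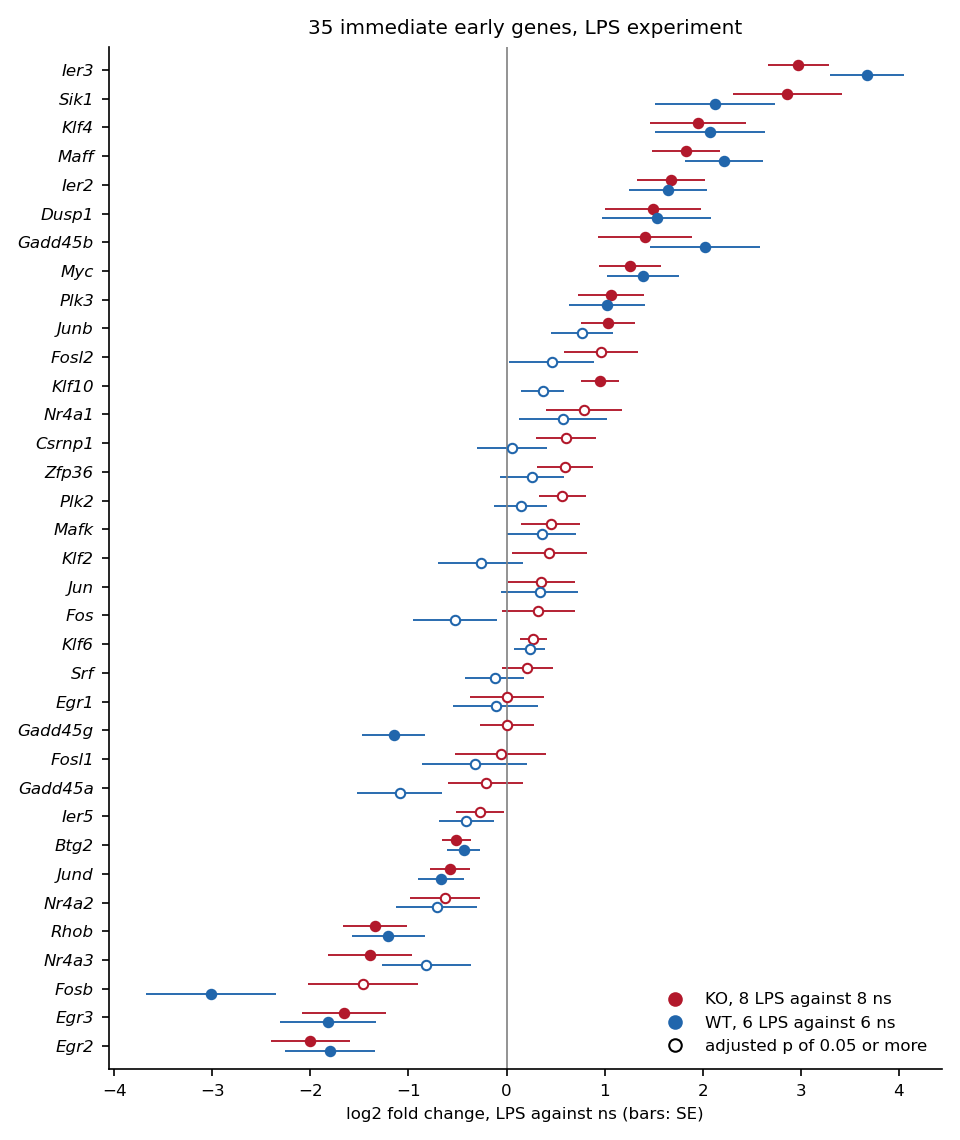
Log2 fold change of LPS against ns (horizontal axis) for the 35 tested genes (vertical axis), in KO (red) and WT (blue), with bars for the standard error and open points for an adjusted p of 0.05 or more. Ier3 lies highest in both genotypes and Egr2, Egr3 and Fosb are among the lowest, while Fos, Jun and Egr1 have open points.

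Members of the Ier family encode small early response proteins, and Ier3 is a known NF-kB target linked to cell survival. Ier3 ranged from 3.01 to 7.31 CPM with a median of 4.35 in KO ns and from 18.0 to 52.4 CPM with a median of 37.8 in KO LPS. The WT values ranged from 2.33 to 6.98 CPM with a median of 3.96 in ns and from 23.3 to 120.4 CPM with a median of 45.2 in LPS. The lowest LPS library exceeded the highest ns library in each genotype. The log2 fold change was 2.98 ± 0.32 (SE) in KO (adjusted p = 4.93e-08) and 3.68 ± 0.38 in WT (adjusted p = 3.52e-08), both by edgeR. Over all genes tested, the groups did not overlap in the higher direction for 3.65% in KO and 10.8% in WT, and among members this held for Ier3 and Klf10 in KO and for Ier3, Ier2 and Maff in WT.

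Ier2, an early response factor found in the nucleus, ranged from 2.58 to 15.1 CPM with a median of 7.74 in KO ns and from 6.78 to 48.6 CPM with a median of 27.1 in KO LPS. In WT it ranged from 7.54 to 25.1 CPM with a median of 12.5 in ns and from 26.9 to 72.4 CPM with a median of 42.4 in LPS. The KO groups overlapped only through KO LPS 5, a library that stands apart, whose value was 6.78 CPM. The log2 fold changes were 1.67 ± 0.35 in KO and 1.65 ± 0.40 in WT (edgeR adjusted p = 5.45e-04 and 0.00252). Ier5, a heat-shock linked regulator, had log2 fold changes of -0.27 ± 0.24 and -0.41 ± 0.28 and was not called. Without the 6 libraries apart it was called lower in both genotypes, at -0.37 ± 0.13 and -0.63 ± 0.15 (edgeR adjusted p = 0.0227 and 9.72e-04).

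Sik1, a salt-inducible kinase that restrains CREB coactivators, ranged from 1.04 to 10.1 CPM with a median of 6.58 in KO ns and from 2.47 to 109.7 CPM with a median of 41.7 in KO LPS. WT libraries ranged from 5.87 to 24.7 CPM with a median of 10.5 in ns and from 15.3 to 103.9 CPM with a median of 55.2 in LPS. In the plot of levels by library the overlap in KO comes from KO LPS 5 at 2.47 CPM, and in WT from WT LPS 7 at 15.3 CPM, both libraries that stand apart. Changes on the log2 scale were 2.87 ± 0.55 in KO and 2.13 ± 0.61 in WT (edgeR adjusted p = 2.40e-04 and 0.00926).

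Klf4, a zinc-finger factor tied to inflammatory activation of macrophages, ranged from 1.51 to 16.3 CPM with a median of 10.3 in KO ns and from 2.13 to 92.0 CPM with a median of 27.9 in KO LPS. Among WT libraries it ranged from 8.28 to 17.1 CPM with a median of 11.7 in ns and from 10.3 to 74.8 CPM with a median of 54.5 in LPS. The groups overlapped through KO LPS 5 and KO LPS 6 in KO and through WT LPS 7 in WT. Its log2 fold changes were 1.96 ± 0.49 and 2.07 ± 0.56 (edgeR adjusted p = 0.00320 and 0.00613). Klf10, a TGF-beta inducible relative, ranged from 7.38 to 15.4 CPM with a median of 11.4 in KO ns and from 18.5 to 24.2 CPM with a median of 21.2 in KO LPS, with no overlap. It was called higher in KO (0.95 ± 0.19, edgeR adjusted p = 4.37e-04) and not in WT (0.37 ± 0.22, adjusted p = 0.216). The difference between these responses was 0.59 ± 0.29 (adjusted p = 0.772), so it was not shown to differ between genotypes, and without the 6 libraries Klf10 was called in WT too (0.52 ± 0.16, adjusted p = 0.0102). Klf2, which is known to hold monocytes quiescent, had 0.44 ± 0.38 in KO and -0.26 ± 0.44 in WT, and Klf6 had 0.27 ± 0.14 and 0.23 ± 0.16. Neither was called, and Klf6 was called higher in WT only without the 6 libraries (0.28 ± 0.12, edgeR adjusted p = 0.0447).

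**Figure D2:**
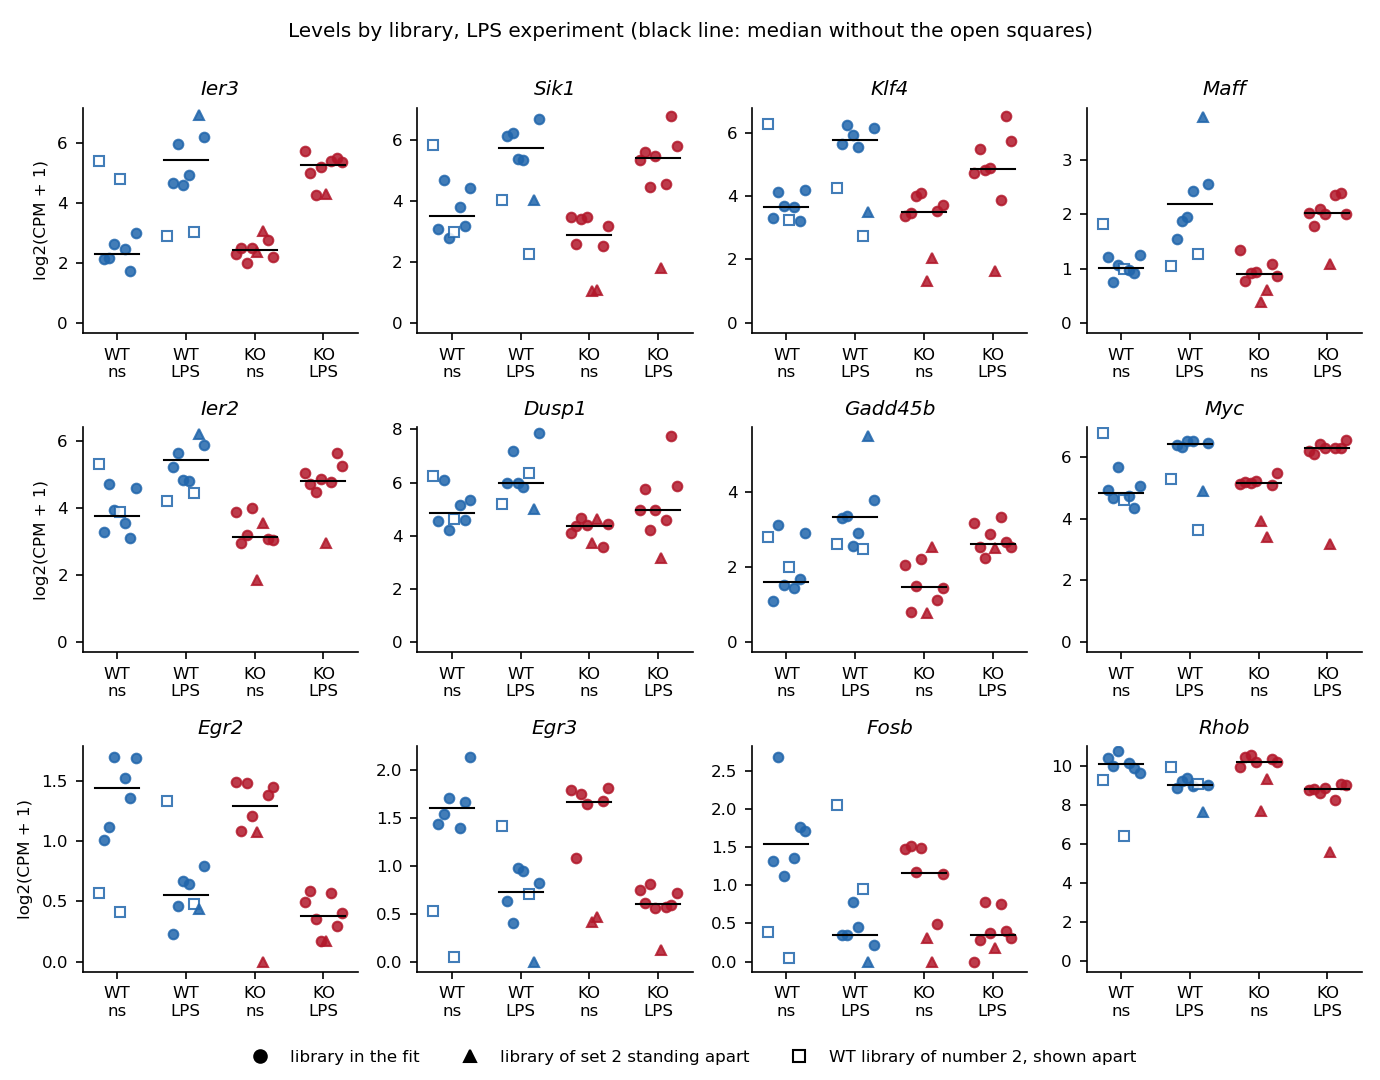
Level of 12 genes as log2(CPM + 1) by library in the 4 groups of the LPS experiment, with triangles for libraries of set 2 that stand apart, open squares for WT libraries of number 2 left out of the tests, and lines for the median without the squares. The 8 genes of the upper rows lie higher in LPS and the 4 of the lowest row lie lower, and the library labelled WT ns 1, 1 of the 2 squares in WT ns, lies nearer to the WT LPS median in each panel.

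Among the small Maf proteins, which pair with larger leucine-zipper factors, Maff ranged from 0.302 to 1.54 CPM with a median of 0.855 in KO ns and from 1.11 to 4.24 CPM with a median of 3.06 in KO LPS. The WT values ranged from 0.691 to 1.37 CPM with a median of 1.03 in ns and from 1.91 to 12.9 CPM with a median of 3.62 in LPS. The highest WT LPS value belonged to WT LPS 7, a library that stands apart, and the WT groups did not overlap. Log2 fold changes were 1.83 ± 0.34 in KO and 2.22 ± 0.40 in WT (edgeR adjusted p = 1.84e-04 and 1.29e-04). Within library set 1 alone the WT value of Maff was 1.29 (adjusted p = 0.00343). Mafk had 0.45 ± 0.30 and 0.36 ± 0.35 and was not called, though it was called higher in both genotypes without the 6 libraries.

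The brakes on signalling and RNA stability did not move as 1 group. Dusp1, a phosphatase that switches off mitogen-activated protein kinases, ranged from 11.0 to 24.5 CPM with a median of 19.7 in KO ns and from 7.89 to 216 CPM with a median of 30.2 in KO LPS. In WT it ranged from 17.4 to 66.9 CPM with a median of 28.8 in ns and from 31.3 to 230.3 CPM with a median of 62.7 in LPS. A single library, KO LPS 7, held 216 CPM, and the next highest in its group held 57.4 CPM. The log2 fold change was 1.49 ± 0.49 in KO (edgeR adjusted p = 0.0226), and without KO LPS 7 it was 0.76 (adjusted p = 0.170). In WT it was 1.53 ± 0.56 (edgeR adjusted p = 0.0385), and without WT LPS 8+9, which held 230 CPM, it was 1.08 (adjusted p = 0.155).

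Btg2, an antiproliferative factor that promotes deadenylation, ranged from 124 to 169 CPM with a median of 160.0 in KO ns and from 53.2 to 135 CPM with a median of 113 in KO LPS. WT libraries ranged from 169.7 to 208 CPM with a median of 177 in ns and from 95.5 to 160.2 CPM with a median of 135 in LPS. The WT groups did not overlap in the lower direction, which held for 14.1% of all genes in WT and for 6 members (Fosb, Jund, Egr2, Egr3, Btg2 and Rhob). In KO no member was lower without overlap, and 3.99% of all genes were. Btg2 was called lower in both genotypes (-0.51 ± 0.15 in KO, edgeR adjusted p = 0.00882, and -0.44 ± 0.17 in WT, adjusted p = 0.0491). Zfp36, which binds AU-rich messages such as Tnf and speeds their decay, had 0.59 ± 0.28 and 0.26 ± 0.33 and was not called. Without the 6 libraries it was called higher, at 0.46 ± 0.0891 in KO and 0.38 ± 0.10 in WT (edgeR adjusted p = 1.16e-04 and 0.00191). The Zfp36 span overlaps that of Paf1, and reads shared by overlapping genes could be counted for either.

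Gadd45 proteins are stress sensors that bind kinases of the p38 and JNK pathways. Gadd45b ranged from 0.705 to 4.82 CPM with a median of 1.78 in KO ns and from 3.74 to 9.11 CPM with a median of 5.06 in KO LPS. Among WT libraries it ranged from 1.14 to 7.64 CPM with a median of 2.05 in ns and from 4.89 to 44.0 CPM with a median of 9.10 in LPS. The highest value was that of WT LPS 7, and the next highest WT LPS library held 12.7 CPM. The log2 fold change was 1.41 ± 0.48 in KO and 2.03 ± 0.56 in WT (edgeR adjusted p = 0.0264 and 0.00702), and 1.301 in WT without WT LPS 7 (adjusted p = 0.0480). Within library set 1 alone the WT value was 1.15 and was not called (adjusted p = 0.192). Gadd45g was called lower in WT, from 4.40 to 14.3 CPM with a median of 6.64 in ns and from 1.48 to 5.58 CPM with a median of 3.24 in LPS, with overlap. Its log2 fold change was -1.15 ± 0.32 in WT (edgeR adjusted p = 0.00751) and 0.00246 ± 0.27 in KO, and the difference of 1.15 ± 0.42 between the genotypes was not called (adjusted p = 0.772, unadjusted p = 0.0107). Gadd45a had -0.21 ± 0.38 in KO and -1.09 ± 0.44 in WT and was not called.

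Myc, a growth-promoting transcription factor, ranged from 9.49 to 44.3 CPM with a median of 34.4 in KO ns and from 8.02 to 94.2 CPM with a median of 77.2 in KO LPS. The WT values ranged from 19.3 to 49.8 CPM with a median of 27.6 in ns and from 29.05 to 91.5 CPM with a median of 85.8 in LPS. Both LPS minima belong to libraries that stand apart (KO LPS 5 and WT LPS 7), and every other LPS library in the fit held at least 67.2 CPM. The log2 fold changes were 1.26 ± 0.32 and 1.39 ± 0.37 (edgeR adjusted p = 0.00338 and 0.00503). Plk3, a stress-activated polo-like kinase whose span overlaps Dynlt4, had 1.06 ± 0.34 and 1.02 ± 0.39 (edgeR adjusted p = 0.0182 and 0.0468). Plk2, its relative, was not called, at 0.57 ± 0.24 and 0.15 ± 0.27, and was called higher in KO without the 6 libraries (0.62 ± 0.22, adjusted p = 0.0228). Srf, the factor that binds CArG boxes, had 0.21 ± 0.26 and -0.12 ± 0.30 and was not called in either fit. Csrnp1, a nuclear factor first described as induced by axin, was called only in KO and only without the 6 libraries (0.44 ± 0.11, edgeR adjusted p = 0.00136).

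The Egr zinc-finger factors split. Egr2, known for a part in macrophage and myelinating cell programs, ranged from 0 to 1.81 CPM with a median of 1.45 in KO ns and from 0.128 to 0.503 CPM with a median of 0.300 in KO LPS. In WT it ranged from 1.01 to 2.25 CPM with a median of 1.72 in ns and from 0.170 to 0.734 CPM with a median of 0.467 in LPS. These are low levels, and the only KO ns library that was not above every KO LPS library was KO ns 6, which stands apart and had 0 counts. Egr3 ranged from 0.335 to 2.51 CPM with a median of 2.17 in KO ns, 0.0853 to 0.756 CPM with a median of 0.516 in KO LPS, 1.63 to 3.40 CPM with a median of 2.03 in WT ns and 0 to 0.970 CPM with a median of 0.658 in WT LPS. The log2 fold changes of Egr2 were -1.999 ± 0.41 in KO and -1.80 ± 0.46 in WT (edgeR adjusted p = 4.42e-04 and 0.00368). Those of Egr3 were -1.66 ± 0.43 and -1.82 ± 0.49 (adjusted p = 0.00418 and 0.00593). Egr1, the member best known as an activity marker, ranged from 0.904 to 6.64 CPM with a median of 5.03 in KO ns and from 0.640 to 10.1 CPM with a median of 4.19 in KO LPS, with a log2 fold change of 0.00556 ± 0.38. In WT it was -0.11 ± 0.43. The Egr2 span overlaps Gm32255 and Ado.

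Fos and Jun proteins pair to form AP-1. Fosb ranged from 1.18 to 5.44 CPM with a median of 1.92 in WT ns and from 0 to 0.717 CPM with a median of 0.270 in WT LPS, with no overlap, and was called lower (-3.01 ± 0.66, edgeR adjusted p = 0.00102). In KO it ranged from 0 to 1.86 CPM with a median of 1.24 in ns and from 0 to 0.717 CPM with a median of 0.269 in LPS, at -1.46 ± 0.56 (adjusted p = 0.0525). Without the 6 libraries it was called lower in KO too (-1.83 ± 0.48, adjusted p = 0.00264). The difference between the genotypes was 1.55 ± 0.86 (adjusted p = 0.772). Fos itself was called in neither genotype, with 0.33 ± 0.37 in KO and -0.53 ± 0.43 in WT. It ranged from 10.4 to 44.7 CPM with a median of 13.9 in WT ns, and the highest value came from WT ns 3. Fosl2 had 0.96 ± 0.38 in KO (adjusted p = 0.0577) and 0.46 ± 0.43 in WT, and without the 6 libraries it was called higher in KO (0.75 ± 0.26, adjusted p = 0.0199). Fosl1 had -0.0590 ± 0.46 and -0.32 ± 0.53.

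Among the Jun proteins, Junb ranged from 15.1 to 92.6 CPM with a median of 85.2 in KO ns and from 28.4 to 172 CPM with a median of 157 in KO LPS. It was called higher in KO (1.04 ± 0.27, edgeR adjusted p = 0.00503) and not in WT (0.77 ± 0.31, adjusted p = 0.0654), where the fit without the 6 libraries called it (0.69 ± 0.14, adjusted p = 2.97e-04). Jund, the Jun protein known for steady expression, was called lower in both (-0.58 ± 0.20 and -0.67 ± 0.24, adjusted p = 0.0352 and 0.0335). It ranged from 40.7 to 76.2 CPM with a median of 51.8 in WT ns and from 26.9 to 38.1 CPM with a median of 32.7 in WT LPS, with no overlap. Jun had 0.35 ± 0.34 and 0.34 ± 0.39 and was not called.

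Of the Nr4a nuclear receptors, which act without a known natural ligand, Nr4a3 was called lower in KO (-1.39 ± 0.43, edgeR adjusted p = 0.0143) at levels under 1 CPM, from 0.135 to 0.849 CPM with a median of 0.595 in ns and from 0.114 to 0.364 CPM with a median of 0.1998 in LPS. In WT it was -0.82 ± 0.45 (adjusted p = 0.174). Nr4a1 was not called, with 0.79 ± 0.39 in KO and 0.57 ± 0.45 in WT. Without the 6 libraries it was called higher in both (0.65 ± 0.25 and 0.83 ± 0.26, adjusted p = 0.0303 and 0.0114). Nr4a2 had -0.63 ± 0.36 and -0.71 ± 0.42 and was not called, though it was called lower in KO without the 6 libraries (-0.75 ± 0.31, adjusted p = 0.0475).

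Rhob, a small GTPase of membrane traffic and the cytoskeleton, fell in both genotypes. It ranged from 202 to 1481 CPM with a median of 1151 in KO ns and from 46.4 to 542 CPM with a median of 442 in KO LPS. WT libraries ranged from 794 to 1697 CPM with a median of 1072 in ns and from 195 to 673 CPM with a median of 508 in LPS, with no overlap. Changes on the log2 scale were -1.34 ± 0.33 and -1.21 ± 0.37 (edgeR adjusted p = 0.00243 and 0.0158). In KO the overlap came from KO ns 5, a library that stands apart, at 202 CPM. Arc, an immediate early gene best known from neurons, stayed at or under 0.439 CPM in every library of the LPS experiment and at or under 0.609 CPM in the sex experiment.

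The 6 libraries that stand apart held low levels of most members. They are WT ns 5, WT LPS 6, WT LPS 7, KO ns 5, KO ns 6 and KO LPS 5. The mean of log2(CPM + 1) over the 35 tested members was 2.55 to 3.89 in them and 3.79 to 4.67 in the other 26. The median level of the 6 was below that of the other 26 for 33 of 36 members, and 33 members had their lowest library among the 6. Mitochondrial genes took 2.69% to 8.55% of counts in the 6 and 0.787% to 1.81% in the others, while depth (15.9 to 26.6 against 18.0 to 168.4 in units of 1000000 counts) overlapped. The part of the mitochondrial share in the members' levels was not tested. All 16 samples of library set 2 had more Xist than Kdm5d and all 16 of set 1 the reverse, so the library sets cannot be told apart from sex. In library set 2 alone 2 members were called in each genotype, against 19 in KO and 17 in WT in set 1 alone. Calls over all genes differed in the same way. They were 721 in KO and 547 in WT of 16533 genes in set 2 alone. In set 1 alone they were 7219 in KO and 6792 in WT of 15939 genes. Among KO calls of the full fit lost in set 2 alone, log2 fold changes moved both ways. Sik1 at 3.67, Ier2 at 2.08, Klf4 at 2.57 and Dusp1 at 2.14 lay further from 0 than in the full fit. So did Myc, Junb, Plk3, Gadd45b and Nr4a3. Rhob at -1.21, Btg2 at -0.44 and Jund at -0.41 lay nearer to 0, as did Egr2, Egr3 and Klf10.

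The 4 WT libraries of library number 2 were placed against the other WT libraries gene by gene, for the 16 members called in WT. In the library labelled WT ns 1, all 16 of 16 lay nearer to the median of the WT LPS samples than to that of the WT ns samples, on the log2(CPM + 1) scale. In the library labelled WT LPS 1, 1 of 16 did so, and the exception was Gadd45b. Klf4 was 76.1 CPM in WT ns 1 and 18.2 CPM in WT LPS 1, and Ier3 was 41.5 and 6.52 CPM. In WT ns 5 and WT LPS 6, which are also among the 6 that stand apart, 8 and 6 of 16 lay nearer to the WT LPS median. With all 4 kept in their labelled groups, 0 of 35 members and 0 of all genes tested were called for LPS in WT by edgeR, and 15 members were still called in KO.

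The knockout was then compared with WT. In ns libraries 34 of 35 members had a log2 fold change below 0, with a median of -0.43, while of all genes 45.9% lay above 0 and their median was -0.044. No member was called by edgeR or by DESeq2, and 8 members had an unadjusted p under 0.05, as did 9.2% of all genes. Called among all genes were 0.0932%, or 15 of 16088. Fos came nearest, at -1.34 ± 0.40 (adjusted p = 0.406), followed by Klf2 at -1.28 ± 0.41 (adjusted p = 0.442) and Klf10 at -0.54 ± 0.21 (adjusted p = 0.467). Fosb was at -1.29 ± 0.55 and Gadd45a at -0.92 ± 0.40 (adjusted p = 0.522 and 0.535).

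The WT ns values of these genes were uneven. WT ns 3 and WT ns 8 held 44.7 and 29.2 CPM of Fos, and the other 4 WT ns libraries of the fit held at most 15.8 CPM. The KO ns libraries ranged from 2.79 to 15.5 CPM with a median of 8.55, inside and below the WT range. Klf2 was 44.7 and 32.1 CPM in WT ns 3 and WT ns 8, but WT ns 4 held 31.1 CPM. Gadd45a was 15.2 and 16.9 CPM against at most 5.69 CPM in the other WT ns libraries of the fit. The highest of the 6 WT ns samples was WT ns 3 or WT ns 8 for 21 of 35 members.

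The same 2 libraries held the most neutrophil RNA. All 10 of 10 neutrophil markers (S100a8, S100a9, Ly6g and others) had a mean of at least 1 CPM in the LPS experiment and none was at 0 throughout. Their summed level was 334 to 17995 CPM in WT ns, 298 to 10096 CPM in KO ns, 1714 to 13504 CPM in WT LPS and 1018 to 4453 CPM in KO LPS, with 17995 and 16660 CPM in WT ns 3 and WT ns 8. Without these 2 libraries, 30 of 35 members still lay below 0 in KO against WT at ns, the median was -0.33, Gadd45a was at 0.10 ± 0.37 and Fos at -0.64 ± 0.43. Without the 6 libraries that stand apart, 29 of 35 lay below 0 with a median of -0.19, and no member was called. In this comparison 2 of the 8 KO ns libraries stand apart, and none of the 6 WT ns samples does. The mean log2(CPM + 1) of members was 2.72 and 3.02 in those 2, and 3.79 to 4.13 in the other 6 KO ns libraries. In bulk RNA, fewer cells of a type and less RNA per cell cannot be told apart, and the part of neutrophil RNA in the members' levels was not tested.

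Under LPS, 29 of 35 members lay below 0 in KO against WT, with a median of -0.30 against -0.035 over all genes, of which 44.7% lay above 0. The median was -0.22 with 30 of 35 below 0 without the 6 libraries that stand apart, -0.14 without KO LPS 5 alone and -0.13 without any library of number 2. No member was called by edgeR or DESeq2, 2 had an unadjusted p under 0.05 against 6.33% of all genes, and 0.0746% of all genes were called. Gadd45b was at -1.25 ± 0.50 and Nr4a3 at -1.09 ± 0.46 (edgeR adjusted p = 0.660 and 0.683). Btg2 was at -0.32 ± 0.16, Ier2 at -0.70 ± 0.36 and Ier3 at -0.60 ± 0.31. The response to LPS itself was compared between genotypes by an interaction term, with 0 members and 0% of all genes called by edgeR and 1 member, Gadd45g, at an unadjusted p under 0.05 against 4.4% of all genes. DESeq2 called 0 members. The interaction term was above 0 for 25 of 35 members, with a median of 0.11. Over all genes 54.9% lay above 0, with a median of 0.060. Without the 6 libraries the term was above 0 for 18 of 35 members, with a median of 0.025, against 51.2% of all genes. There edgeR again called 0 members. The comparisons at ns, at LPS and of the responses share samples.

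**Figure D3:**
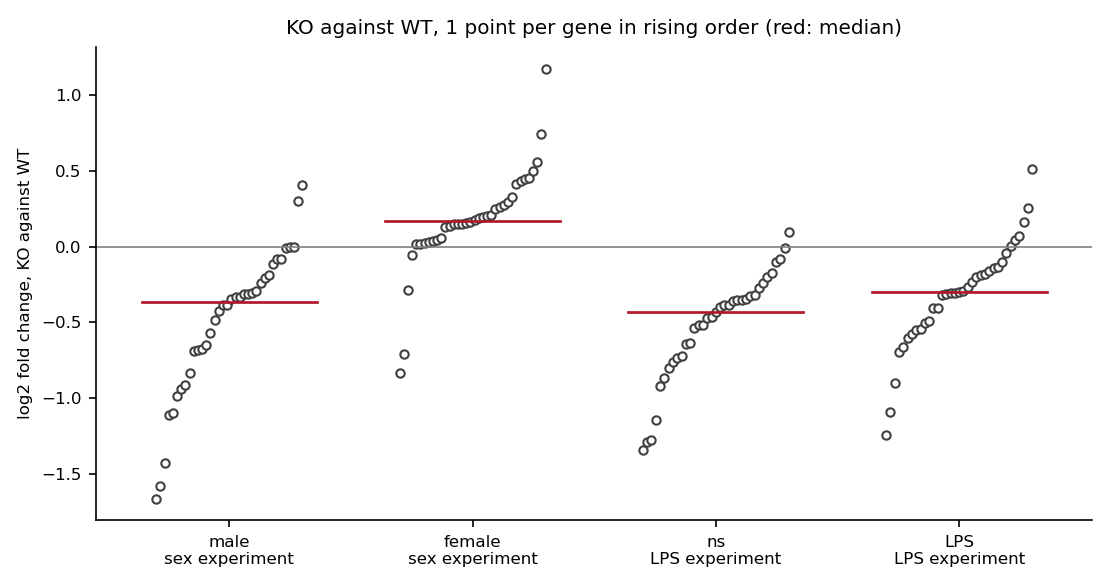
Log2 fold change of KO against WT (vertical axis), 1 open point per gene in rising order, in the 2 sexes of the sex experiment (36 genes) and at ns and LPS in the LPS experiment (35 genes), with red lines for the medians of -0.37, 0.17, -0.43 and -0.30. Most points lie below 0 in males, at ns and at LPS and above 0 in females, and no gene passed the adjusted p in any of the 4.

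In the sex experiment the members lay mostly below 0 in males and above 0 in females, and none was called. In males 34 of 36 had a log2 fold change of KO against WT below 0, with a median of -0.37, and 0.00946% of all genes were called (3 of 31709). In females 32 of 36 lay above 0, with a median of 0.17, and 0.164% of all genes were called. Over all genes 48.2% lay above 0 in males and 47.2% in females. By edgeR 0 members were called in either sex, 9 members in males and 1 in females had an unadjusted p under 0.05 (6.85% and 5.22% of all genes), and DESeq2 called 0 in both. The difference of the sexes (female effect minus male effect) was above 0 for 35 of 36 members, with a median of 0.68 against 0.028 over all genes, of which 53.9% lay above 0. It was called for 0 members and 0% of all genes by edgeR, with 7 members and 2.77% of all genes at an unadjusted p under 0.05, and for 0 members by DESeq2.

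The male WT values were uneven. Fos was 705, 602, 606 and 1227 CPM in the 4 male WT libraries and 626, 381, 470.5, 376 and 347 CPM in the 5 male KO libraries. It was 676, 963, 789 and 658 CPM in female WT and 637, 685, 828, 939.9 and 1195 CPM in female KO. The highest male WT value, that of male WT 5, lay far above the others, and the male groups overlapped through male KO 1. The log2 fold change of Fos was -0.84 ± 0.24 in males (unadjusted p = 0.00301, edgeR adjusted p = 0.719) and 0.15 ± 0.24 in females. The sex by genotype term of Fos was 0.99 ± 0.34 (unadjusted p = 0.0105, adjusted p = 0.999).

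Fosb was 270.4, 201, 150.2 and 284 CPM in male WT and 194, 81.4, 132, 84.7 and 109 CPM in male KO. In females it was 290.4, 277, 327 and 269.6 CPM in WT and 234, 227, 325, 272 and 413 CPM in KO. Here male WT 5 was close to male WT 1, and only male KO 1 lay inside the male WT range. The log2 fold change was -0.91 ± 0.25 in males (unadjusted p = 0.00261, adjusted p = 0.719 by edgeR) and 0.0150 ± 0.26 in females.

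Egr1 was 441, 324, 369 and 1106 CPM in male WT and 354, 238, 333, 201 and 285 CPM in male KO, with the value of male WT 5 again the highest. In females it was 391, 619, 504 and 505 CPM in WT and 336, 447, 539.7, 585 and 662 CPM in KO, and these groups overlapped. Log2 fold changes were -0.99 ± 0.32 and 0.0263 ± 0.32. Nr4a1 was 46.6, 53.8, 74.6 and 301 CPM in male WT and 50.3, 50.9, 39.4, 44.4 and 92.8 CPM in male KO, and its fold change was -1.10 ± 0.56 in males and 0.0469 ± 0.56 in females.

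**Figure D4:**
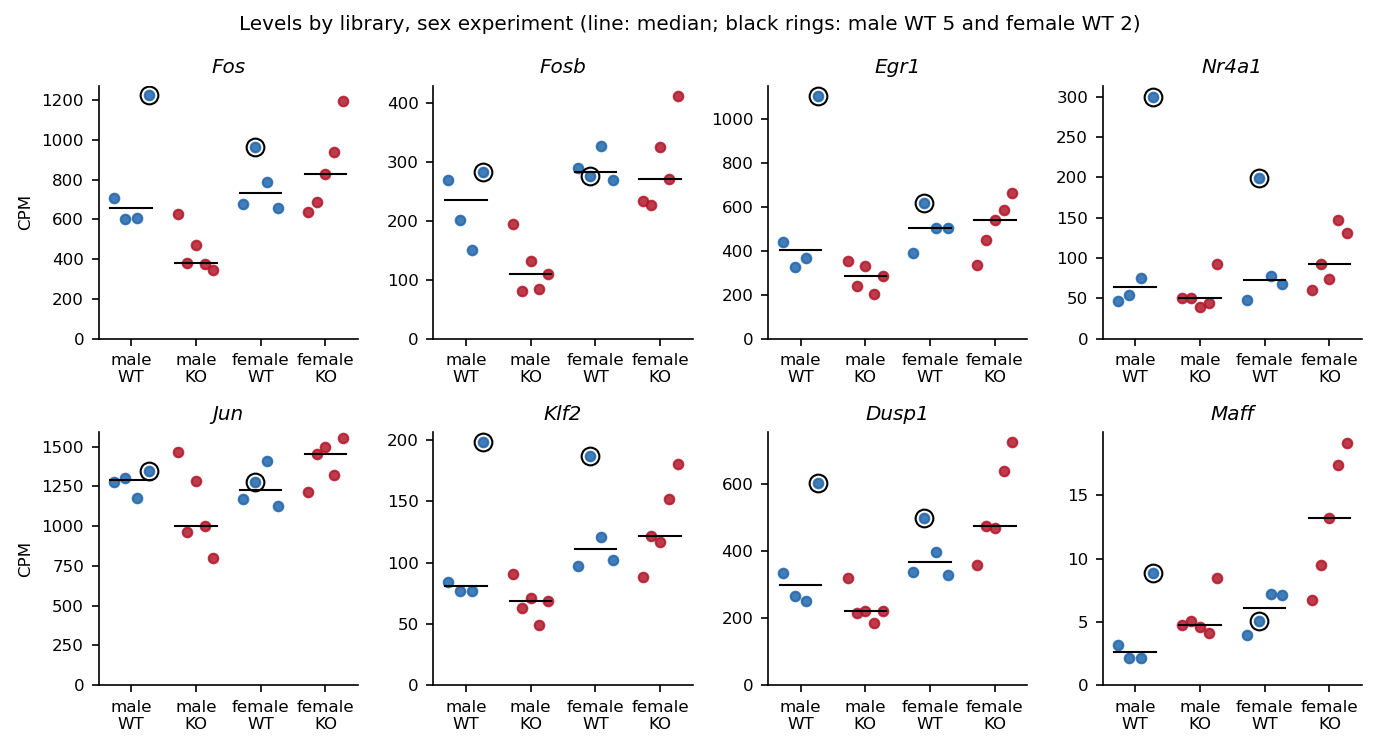
Level in CPM (vertical axis, from 0) of 8 genes in each library of the 4 groups of the sex experiment, with lines for the medians and rings around male WT 5 and female WT 2. In the panel of Fos the ringed male WT 5 lies at 1227 CPM and the other male WT libraries at 602 to 705 CPM, while Maff is highest in female KO libraries.

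Jund was the 1 member whose male groups did not overlap, at 108, 105.7, 100.02 and 124 CPM in WT and 93.4, 82.9, 92.8, 83.4 and 80.7 CPM in KO. Over all genes 0.978% were lower in male KO without overlap. Its log2 fold change was -0.33 ± 0.12 (unadjusted p = 0.0116, edgeR adjusted p = 0.719), and in females it was 0.20 ± 0.12. Of the other members named throughout, Jun had -0.21 ± 0.13 in males and 0.17 ± 0.13 in females, Junb -0.39 ± 0.19 and 0.19 ± 0.19, Ier2 -0.94 ± 0.41 and 0.13 ± 0.41, and Klf2 -0.68 ± 0.31 and 0.0571 ± 0.31. Klf4 had -0.31 ± 0.19 and 0.19 ± 0.19, Zfp36 -0.31 ± 0.22 and 0.29 ± 0.22, Btg2 -0.32 ± 0.22 and 0.33 ± 0.22, and Dusp1 -0.65 ± 0.26 and 0.45 ± 0.26. The members above 0 in males were Maff and Myc, at 0.41 ± 0.42 and 0.30 ± 0.17, and Myc was at 0.13 ± 0.17 in females.

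Maff went the same way in both sexes. It was 3.13, 2.14, 2.10 and 8.84 CPM in male WT, 4.76, 5.10, 4.57, 4.08 and 8.46 CPM in male KO, 3.99, 5.05, 7.21 and 7.14 CPM in female WT and 6.70, 9.53, 13.2, 17.4 and 19.1 CPM in female KO. The 4 highest values were those of female KO libraries, and male WT 5 lay above every male KO library. The log2 fold change averaged over the sexes was 0.79 ± 0.30 (unadjusted p = 0.0184, edgeR adjusted p = 0.488), and in females it was 1.18 ± 0.43 (adjusted p = 0.657). Without male WT 5 the averaged adjusted p of Maff was 0.0194, the only call of a member in the sex experiment under any alternative, and without both male WT 5 and female WT 2 it was 0.0594. In the averaged comparison edgeR and DESeq2 called 0 members, 4 members and 9.02% of all genes had an unadjusted p under 0.05, and edgeR called 0.432% of all genes. Fosl1 and Gadd45a were at -1.25 ± 0.54 and -1.07 ± 0.49 there, and 0.25 ± 0.20 and 0.25 ± 0.15 without those 2 libraries. Fosb was at -0.45 ± 0.18 and Egr1 at -0.48 ± 0.23.

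Male WT 5 was the highest of the 4 male WT libraries for 33 of 36 members and the highest of all 18 libraries for 23. Female WT 2 was the highest of its group for 26 of 36. Both were also the highest of all libraries in neutrophil markers, with summed levels of 49294 and 29066 CPM. The range over male WT was 1747 to 49294 CPM, over male KO 2076 to 3720 CPM, over female WT 732 to 29066 CPM and over female KO 1583 to 5552 CPM, and all 10 of 10 markers had a mean of at least 1 CPM with none at 0 throughout. The 6 monocyte markers were highest in the same 2 libraries, at 4464 and 2557 CPM. Without the 2, 15 of 36 members lay above 0 in males with a median of -0.036, and 34 of 36 in females with a median of 0.35. Fos in males was then -0.53 ± 0.21, Egr1 -0.42 ± 0.22 and Fosb -0.78 ± 0.29, none of them called. The sex by genotype difference was above 0 for 33 of 36, with a median of 0.37, and without male WT 5 alone its median was 0.23. The part of neutrophil or monocyte RNA in these values was not tested.

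In female KO, libraries 4 and 5 were the highest of their group for 34 of 36 members. Their border macrophage markers, such as Mrc1 and Cd163, summed to 883 and 1150 CPM, the highest of the 18 libraries, and the other 3 female KO libraries lay at 239 to 370 CPM. The same 2 libraries had the highest mitochondrial shares of the 18, at 0.212% and 0.227% of counts, and female KO 4 the highest neutrophil sum of its group, at 5552 CPM. The part of these in the members' levels was not tested. Between WT females and WT males 0 members were called by edgeR or DESeq2, with 0 members and 7.5% of all genes at an unadjusted p under 0.05, and edgeR called 0.0725% of all genes. The median log2 fold change was -0.045, and Srf had the smallest p at -0.21 ± 0.13 (adjusted p = 0.675). Next came Plk2 at 0.56 ± 0.37 and Egr2 at 0.23 ± 0.15.

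The 2 experiments held the same genes at different levels, which can be given side by side only, since the tables were counted and scaled separately and no test joins them. Fos ranged from 347 to 1227 CPM in the sex experiment and from 1.49 to 44.7 CPM in the LPS experiment. Egr1 ranged from 201 to 1106 CPM and from 0.583 to 10.1 CPM, and Fosb from 81.4 to 413 CPM and from 0 to 5.44 CPM. For 13 of 36 members every library of the sex experiment lay above every library of the LPS experiment, and for none was it the reverse. The median was higher in the sex experiment for 31 of 36. Rhob was not among the 13, at 861 to 1400 CPM and 46.4 to 1697 CPM, and neither was Myc, at 44.7 to 74.9 CPM and 8.02 to 110 CPM.

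Other genes of the same processes were examined through lists made for this purpose, also with earlier results of these data known. Of 34 further genes known to rise during tissue dissociation (heat-shock genes, NF-kB inhibitors, chemokines), 33 were tested in the LPS experiment, with 12 higher and 8 lower in KO by an adjusted p under 0.05, and 15 and 5 in WT, which is 60.6% in each. Of all genes tested, 28.5% were called in KO and 30.7% in WT. The median log2 fold change of the list was 0.76 in KO and 1.20 in WT, against 0.014 and 0.026 over all genes. The part of dissociation in these values was not tested. Tnf, an inflammatory cytokine, rose by 4.24 ± 0.38 in KO and 4.86 ± 0.45 in WT, and Socs3, an inhibitor of cytokine signalling, by 3.48 ± 0.29 and 3.17 ± 0.33 (edgeR adjusted p = 2.87e-09, 9.11e-09, 1.02e-09 and 5.77e-08). The linker histone gene Hist1h1c was lower, at -2.79 ± 0.23 and -2.07 ± 0.26. In the sex experiment 1 of these 34 was called, in the comparison averaged over the sexes, where 0.432% of all genes were called. It was the chemokine Ccl3, higher in KO at 0.58 ± 0.12 (edgeR adjusted p = 0.0431). Its level was 188 to 278 CPM in male WT, 248 to 470 CPM in male KO, 228 to 284 CPM in female WT and 277 to 432 CPM in female KO, so the groups overlapped. In KO against WT under LPS 0 of 33 were called by edgeR, 11 had an unadjusted p under 0.05 against 6.33% of all genes, and 31 lay below 0 with a median of -0.41. In females 0 of 34 were called, 11 had an unadjusted p under 0.05 against 5.22% of all genes, and 33 lay above 0 with a median of 0.38.

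Of 30 genes upstream of the immediate early response (the kinase cascades and the factors Elk, Creb and Ets), 3 rose and 3 fell in KO, while 3 rose and 4 fell in WT. These shares, 20.0% and 23.3%, lie below the 28.5% and 30.7% of all genes called. Map3k8, the kinase that links Toll-like receptors to the ERK pathway, rose by 2.04 ± 0.11 in KO and 2.04 ± 0.13 in WT (edgeR adjusted p = 8.54e-13 and 2.35e-11). Its level was 17.5 to 28.8 CPM in KO ns and 81.7 to 117 CPM in KO LPS, with no overlap. Mapkapk2, the kinase that acts on Zfp36, rose by 1.26 ± 0.28 and 1.25 ± 0.32. Of 28 family relatives of the members, 25 were tested, and 7 rose and 4 fell by this test in KO, while 4 rose and 4 fell in WT, or 11 and 8 of 25. Batf, a leucine-zipper partner of Jun proteins, rose by 0.86 ± 0.20 and 1.40 ± 0.24, while Batf3 was lower at -0.93 ± 0.16 and -1.10 ± 0.19. No gene of the upstream and relative lists was called in KO against WT in either experiment by edgeR, and each list had 0 to 4 genes at an unadjusted p under 0.05 in these comparisons.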

How the data were processed

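The deposited values were whole-number read counts per gene, 1 table per experiment. FastQC, STAR 2.6.1, featureCounts, Subread, DESeq2 and GRCm39 are named in the submitters' processing notes. The strand setting and whether the authors counted reads or fragments are not given in the sources used here. Of counts of 20 or fewer, 79.0% to 89.2% were even per library in the sex experiment and 39.7% to 45.6% in the LPS experiment. No member was called in the sex experiment with the deposited counts or with halved counts, so halving could not have lost a call. Of 24 labelled samples of the sex experiment, 18 have a column, and the 6 repeat libraries have none of their own. The deposited tables also give a gene length (a score here), used only to check spans. Columns were matched to samples by name. The members and lists were chosen with earlier results of these data known. Named were members called per comparison, the 5 with the smallest p where fewer than 5 were called, and 12 members throughout. Counts were tested with edgeR 4.0.16 (R 4.3.3, limma 3.58.1) by quasi-likelihood with TMM scaling, filterByExpr and robust dispersion, with Benjamini-Hochberg adjustment over all genes tested and a threshold of 0.05. In the LPS experiment library set (1 or 2) was a covariate and 28 samples were fitted. The standard error is the log2 fold change divided by the root of F. Alternatives were DESeq2 1.42.0, RLE scaling (relative log expression), other filters, other groupings of libraries and leaving out each library. The model was tested on simulated data. WT LPS 8 and WT LPS 9 had a chi-square per degree of freedom of 1.86, and the next closest pair of libraries 8.32. The spans of 8 of 36 members overlap another gene. Figures were drawn with matplotlib 3.10.9.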

Additional observations from a re-analysis of the deposited data

Results flagged for a closer look

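Of 96 combinations of member and group tested, 21 held a library that lay far from the rest of its group by Dixon's criterion. For independent tests chance gives about 1 in 20. The members of a group share its libraries, so the count cannot show an excess over chance. In male WT, the library male WT 5 was far above the others for 8 members, with Fos at 1227 CPM (next 705), Junb at 399.7 (next 252), Egr1 at 1106 (next 441), Ier2 at 195 (next 61.6), Nr4a1 at 300.5 (next 74.6), Klf2 at 199 (next 84.6), Zfp36 at 1703 (next 892) and Btg2 at 924 (next 476). In male KO, Nr4a1 was 92.8 CPM in male KO 5 (next 50.9) and Dusp1 was 319.6 CPM in male KO 1 (next 221).

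In the LPS experiment KO LPS 5 was far below its group for Jun at 5.88 CPM (next 76.0), Junb at 28.4 (next 143.5), Zfp36 at 20.0 (next 173) and Myc at 8.02 (next 67.2). WT LPS 7 was far below for Zfp36 at 85.8 CPM (next 173) and Myc at 29.05 (next 79.5). Both are among the 6 libraries that stand apart. High values were Jun at 134 CPM (next 78.8) and Junb at 163 (next 98.5) in WT ns 4, Btg2 at 208 (next 183) in WT ns 3, Egr1 at 10.1 (next 4.59) in KO LPS 6 and Dusp1 at 216 (next 57.4) in KO LPS 7. The library labelled WT ns 1, which was left out of the tests, lay above all 6 WT ns samples tested for Ier2 at 39.1 CPM (highest 25.1), Klf4 at 76.1 (highest 17.1), Myc at 110.2 (highest 49.8) and Dusp1 at 75.2 (highest 66.9).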

How the results depend on the processing

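Since 8 of 10 comparisons had 0 members called, only the counts for LPS against ns can show a change downward. These moved by over 1.5 times in 5 cases other than single libraries left out, with 10 members called in WT with a minimum mean of 5 CPM (26 members tested), 0 in WT with all libraries in their labelled groups, 2 in each genotype in library set 2 alone, and 26 in KO without the 6 libraries that stand apart. Over all genes the calls in these cases, in the same order, were 3325 of 10425, 0 of 15857, 721 (KO) and 547 (WT) of 16533, and 8783 of 16071. Leaving out 1 library gave 15 to 23 members in KO and 12 to 17 in WT, 0 to 1 in KO against WT averaged over the sexes, and 0 in the other comparisons. DESeq2 called 19 and 17 members for LPS in KO and WT, and 5221 and 5696 of all 16088 genes. Library numbers were not taken to pair samples in the main fits. Of same-numbered pairs, 15 of 24 of the sexes and 21 of 35 of the LPS table correlated above 0.1. Their mean correlations were 0.0994 and 0.25, above the -0.019 and 0.033 of the 97 and 257 other pairs. These values do not settle whether the numbers mark paired samples, so a fit with a block by number was also made. With a replicate block, 18 members were called for LPS in KO and 18 in WT, and 0 in each other comparison. Of all 16088 genes, 5574 were then called in KO and 5758 in WT. The block kept 16 of 17 calls of the main fit in KO and 15 of 16 in WT. Dusp1 in KO (1.04, edgeR adjusted p = 0.0768) and Btg2 in WT (-0.37, adjusted p = 0.0861) were lost. Junb in WT was gained (0.81, edgeR adjusted p = 0.00207).

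Values that changed sign were small or uncalled, and the cause was not tested. Egr1 for LPS in KO was -0.031 with DESeq2, -0.032 with RLE scaling, -0.083 with a mean of 5 CPM, -0.073 with the replicate block, -0.011 with all libraries in their labelled groups, -0.028 without the library set, -0.48 in set 1 alone, -0.26 without the 6 libraries and -0.039 without WT ns 3 and WT ns 8, and leaving out 1 library gave -0.40 to 0.15. Egr1 in WT was 0.048 with all libraries in their labelled groups, 0.16 in set 2 alone and 0.043 without WT ns 3 and WT ns 8. Fos was -0.25 in KO in set 1 alone and 0.13 in WT without WT ns 3 and WT ns 8. Klf2 in WT was 0.031 with all libraries in their labelled groups and 0.0046 without WT ns 3 and WT ns 8. For Ier3 the genotype by LPS term was 1.12 with all libraries in their labelled groups. Without WT ns 3 and WT ns 8, Gadd45a was 0.10 for KO against WT at ns and its genotype by LPS term was -0.16. The WT median for LPS was -0.036 to 0.30 when 1 library was left out.

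In the sex experiment, leaving out male WT 5 and female WT 2 gave 0.061 for Btg2 in males, and averaged over the sexes 0.13 for the median, 0.25 for Fosl1 and 0.25 for Gadd45a. The median for female against male WT was then 0.23, and 0.026 with a mean of 5 CPM. With that filter Egr1 in females was -0.0062. Leaving out 1 library gave -0.45 to 0.059 for Btg2 in males. In females it gave -0.081 to 0.14 for Egr1, -0.051 to 0.43 for Ier2, -0.18 to 0.66 for Nr4a1 and -0.083 to 0.31 for Klf2. It gave -0.12 to 0.040 for the averaged median and -0.15 to 0.42 for the median of female against male WT. The 3 fits without the libraries named together here were chosen after seeing the data. Between libraries edgeR estimated a typical variation of 35.3% for the sexes and 40.1% for LPS, and levels under 1 CPM rest on few reads.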
